A study of Mus musculus with 6 samples.

Results

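Connexin and pannexin genes were described in mouse hippocampal neurospheres, called big neurospheres in all sample titles, grown with norepinephrine or with KCl. The 8 genes were Gja1, Gjb2, Gjb6, Gjc1, Gjc3, Gjd2, Panx1 and Panx2, chosen by symbol, and each had a single probe set among the 21640 probe sets that carry 1 gene symbol, which cover 19937 genes. Neurospheres are free-floating clusters that grow from dividing neural stem and precursor cells, here primary ones from the hippocampus of male C57BL/6J mice of 8 to 12 weeks. Cells were cultured with EGF and bFGF, and 3 samples received 10 µM norepinephrine and 3 received 15 mM KCl until collection on day 14. Norepinephrine is a monoamine transmitter, and KCl in the medium depolarises excitable cells. Both groups share the growth factors, and no untreated group was analysed here, so it cannot be said which of the treatments a difference is due to. The labels call the samples biological replicates without naming separate animals or cultures, so the p-values rest on how far these 6 samples vary, which may in part be technical.

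Connexins form gap junctions, channels that join the cytoplasm of neighbouring cells and pass ions and small molecules. Pannexins resemble them in membrane topology but act mainly as single-membrane channels that can release ATP. In the brain, Gja1 (Cx43) and Gjb6 (Cx30) are the main connexins of astrocytes and also occur in radial glia-like stem cells, Gjc3 (Cx29) belongs to oligodendrocyte lineage cells, and Gjd2 (Cx36) builds electrical synapses between neurons. Gjc1 (Cx45) is known from precursors, some neurons and vascular mural cells.

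On the deposited log2 scale, Gja1 was higher on all 3 norepinephrine arrays, whereas Gjc1 and Gjc3 were higher on all 3 KCl arrays. The other 5 genes overlapped between the groups. By limma with Benjamini-Hochberg adjustment over all 21640 probe sets, none of the 8 genes passed an adjusted p of 0.05, as was true of every probe set (0%). At an unadjusted p under 0.05 stood 3 of the 8, Gja1, Gjc1 and Gjc3, where the share over all probe sets was 3.43% (743 probe sets). The groups did not overlap for the same 3 genes, against 9.13% of all probe sets. The 8 genes were chosen with earlier results of these data known, so counts set beside these shares are a description only. KCl replicate 1 stood apart from the other arrays: its values over the named probe sets had an SD of 1.38, against 1.62 to 1.78 elsewhere, and values without it are given where they bear on a result. Both counts were also 3 of 8 without that array, where the shares over all probe sets were 4.63% and 16.2%. In that fit 4 probe sets (0.0185%) passed the adjusted threshold, none of them from the 8 genes.

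**Figure D1:**
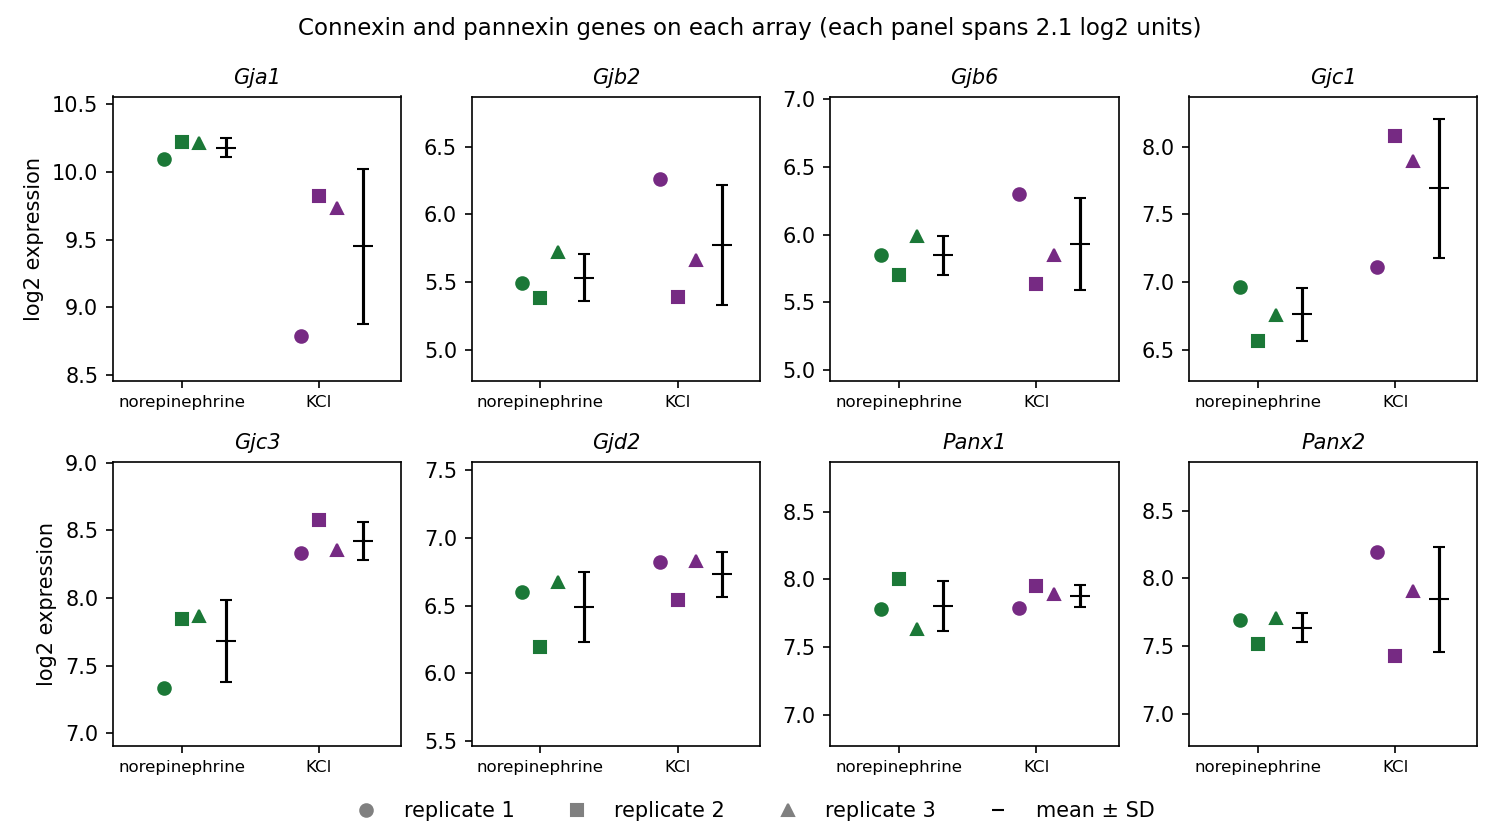
Log2 expression of the 8 genes on each array (y axis, a 2.1-unit span in each panel), with green symbols for norepinephrine, purple symbols for KCl, symbol shape for the replicate number, and black bars for the mean ± SD of 3 arrays. The groups are apart for Gja1, Gjc1 and Gjc3 and overlap in the other panels, and KCl replicate 1 (purple circle) lies lowest for Gja1 at 8.79.

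The RefSeq promoter table (GRCm38.p6) held 6 of the 8 genes, Gjc1 and Panx2 not among them. The 250 bases before the annotated start are shown for Gja1 and Gjc3, because both are among the 3 genes whose groups were apart and they differed in opposite directions. The windows were searched on both strands for the AP-1 motif TGANTCA and for the cAMP response element TGACGTCA with its half-site TGACG, which are letters bound by factors that act downstream of depolarisation and cAMP. A full cAMP response element holds a half-site on each strand. Capitals mark matches. The windows lie at chr10:56377050-56377299 on the plus strand for Gja1 and at chr5:137963099-137963348 on the minus strand for Gjc3, each written 5′ to 3′ along its gene.
Gja1: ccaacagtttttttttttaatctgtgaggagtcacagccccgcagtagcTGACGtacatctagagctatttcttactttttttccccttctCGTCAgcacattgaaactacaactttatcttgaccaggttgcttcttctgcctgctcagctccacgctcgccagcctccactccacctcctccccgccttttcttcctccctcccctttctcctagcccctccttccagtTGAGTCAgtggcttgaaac
Gjc3: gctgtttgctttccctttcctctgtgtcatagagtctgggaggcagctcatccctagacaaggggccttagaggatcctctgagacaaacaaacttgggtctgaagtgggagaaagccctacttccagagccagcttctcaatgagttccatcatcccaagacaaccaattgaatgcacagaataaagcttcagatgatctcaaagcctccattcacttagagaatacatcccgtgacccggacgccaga

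The Gja1 window held 1 AP-1 match, TGAGTCA, whose first base lies 19 bases before the start, and 2 half-sites, 1 on each strand. The Gjc3 window held no match to any of these letters. Of the other 4 windows, those of Gjb2, Gjd2 and Panx1 held 1 half-site each and that of Gjb6 held none. The full TGACGTCA was in 0 of the 6. Over all 32851 windows of this length, 6.75% held TGANTCA, 17.8% held TGACG and 1.55% held TGACGTCA. These matches are a description of the letters, and binding was not measured.

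Gja1, which encodes Cx43, read 10.10, 10.22 and 10.21 on the norepinephrine arrays (replicates 1, 2 and 3) and 8.79, 9.82 and 9.74 on the KCl arrays. The norepinephrine arrays lay close together, and all 3 exceeded the highest KCl array. The mean was 10.18 ± 0.069 with norepinephrine and 9.45 ± 0.57 with KCl (SD, n = 3 each). The difference was 0.73 ± 0.28 log2 units (SE), a 1.66-fold difference, with a 95% interval from 0.087 to 1.37 (limma, adjusted p = 0.939).

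Much of the spread of Gja1 in the KCl group came from KCl replicate 1, which read 0.99 log2 units under the mean of the other KCl arrays. Bright probe sets as a whole read low on that array. Among the 5% of probe sets of like level, the median deviation was -0.63, and the middle 50% ran from -1.10 to -0.17. Without KCl replicate 1 the Gja1 difference was 0.40 ± 0.16, with an interval from 0.039 to 0.76, and the groups were still apart (limma, adjusted p = 0.999). Over all alternatives the adjusted p ran from 0.00473 to 0.9999, the lowest from array weights that rested the KCl group on 1 array. The unadjusted p was 0.0335 without KCl replicate 1 and 0.0303 with it. It was above 0.05 when each array was centred on its median (0.0511), and in each fit with 1 norepinephrine array left out (0.0588, 0.0741 and 0.0759).

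Gjb6 and Gjb2, the other connexins linked to astrocytes in the adult brain, overlapped between the treatments. Gjb6 (Cx30) read 5.85, 5.70 and 5.99 with norepinephrine and 6.30, 5.64 and 5.85 with KCl. Its highest array was KCl replicate 1, and the other 5 arrays were interleaved. The difference was -0.083 ± 0.22, with an interval from -0.59 to 0.42. It was 0.10 ± 0.17 without KCl replicate 1, -0.23 without KCl replicate 2 and -0.010 without norepinephrine replicate 2. Gjb2 (Cx26), also a connexin of the meninges and the inner ear, read 5.49, 5.38 and 5.72 with norepinephrine and 6.26, 5.39 and 5.66 with KCl. Again KCl replicate 1 alone stood high. The difference of -0.24 ± 0.25 became 0.0043 ± 0.18 without that array, with intervals from -0.81 to 0.33 and from -0.41 to 0.42, and -0.43 without KCl replicate 2.

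Gjb2 and Gjb6 were the only 2 of the 8 genes whose mean level lay under the 30th percentile of the named probe sets, 6.45 log2 units. Without scanner files their signal over background could not be assessed. In the RefSeq gene order, Gja3, Gjb2 and Gjb6 are consecutive protein-coding genes on chromosome 14. Their differences side by side were 0.045 ± 0.26, -0.24 ± 0.25 and -0.083 ± 0.22, or 0.19, 0.0043 and 0.10 without KCl replicate 1, and each interval on 6 arrays held 0.

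Gjc1, which encodes Cx45, read 6.96, 6.57 and 6.76 with norepinephrine and 7.11, 8.07 and 7.89 with KCl. All KCl arrays were above all norepinephrine arrays, but KCl replicate 1 exceeded norepinephrine replicate 1 by only a narrow margin. The means were 6.76 ± 0.20 and 7.69 ± 0.51 (SD, n = 3 each). The difference was -0.93 ± 0.27, 1.91-fold higher with KCl, with an interval from -1.55 to -0.31 (limma, adjusted p = 0.939).

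For Gjc1, KCl replicate 1 read opposite to the trend of that array. It read 0.87 log2 units under the mean of the other KCl arrays, whereas probe sets of like level had a median deviation of 0.31 and a middle 50% from -0.042 to 0.56. Without that array the Gjc1 difference was -1.22 ± 0.18, with an interval from -1.63 to -0.81 and an unadjusted p of 8.08e-05. The adjusted p was 0.116 there and ran from 4.65e-05 to 0.9999 over all alternatives. The lowest came from array weights that rested the KCl group on 1 array. After a further quantile normalization the difference was -0.80 ± 0.30, and KCl replicate 1 at 6.89 then lay within the norepinephrine range of 6.70 to 6.95, so the groups overlapped.

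Gjc3, which encodes Cx29, read 7.33, 7.84 and 7.87 with norepinephrine and 8.33, 8.58 and 8.35 with KCl. Here the KCl arrays lay close together, with KCl replicate 1 among them, and norepinephrine replicate 1 was the lowest array. The means were 7.68 ± 0.30 and 8.42 ± 0.14 (SD, n = 3 each). The difference was -0.74 ± 0.21, 1.67-fold higher with KCl, with an interval from -1.22 to -0.26 (limma, adjusted p = 0.939). It was -0.79 ± 0.21 without KCl replicate 1 (limma, adjusted p = 0.562). Over all alternatives the adjusted p ran from 0.0015 to 0.9999, the lowest again from the array weights. Leaving out norepinephrine replicate 1 gave the smallest difference, -0.57 ± 0.24.

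**Figure D2:**
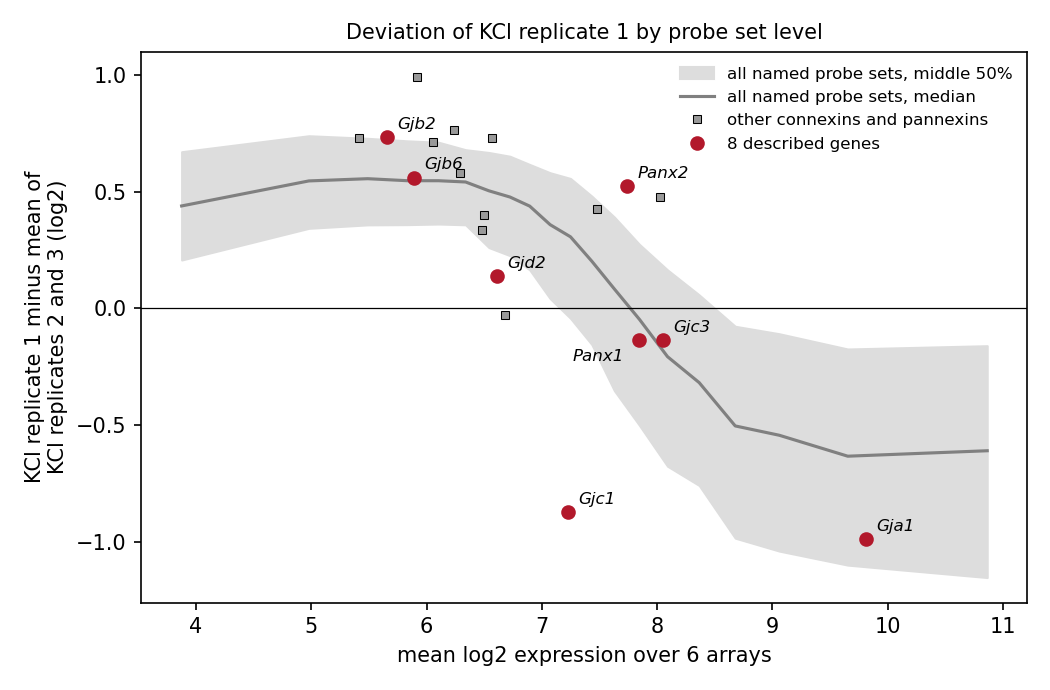
Deviation of KCl replicate 1 from the mean of KCl replicates 2 and 3 (y axis, log2) against the mean level over 6 arrays (x axis, log2), with a grey line and band for the median and middle 50% of all named probe sets in 5% steps of level, red circles for the 8 genes and grey squares for the other 11 measured family genes. Dim probe sets lie above 0 and bright ones below, and Gjc1 at -0.87 lies far under the band at its level.

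Gjd2, which encodes Cx36 of electrical synapses, read 6.60, 6.19 and 6.67 with norepinephrine and 6.82, 6.54 and 6.83 with KCl. The groups overlapped through KCl replicate 2. The difference was -0.24 ± 0.21, with an interval from -0.71 to 0.23. It was -0.20 ± 0.20 without KCl replicate 1 and -0.095 without norepinephrine replicate 2.

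Among the pannexins, Panx1, a broadly expressed ATP release channel, read 7.78, 8.00 and 7.64 with norepinephrine and 7.79, 7.95 and 7.89 with KCl. The KCl arrays lay inside the norepinephrine range. Its difference of -0.071 ± 0.19 had an interval from -0.50 to 0.35, which excludes a 2-fold difference in either direction under this model. The intervals of Gjb2, Gjb6, Gjd2 and Panx2 on 6 arrays do so too. The Panx1 difference ran from -0.17 without norepinephrine replicate 2 to 0.014 without norepinephrine replicate 3. Panx2, the pannexin most abundant in the nervous system, read 7.69, 7.51 and 7.70 with norepinephrine and 8.19, 7.43 and 7.91 with KCl. The KCl group held both the highest and the lowest array. Its difference was -0.21 ± 0.23, with an interval from -0.73 to 0.32, with -0.033 ± 0.19 without KCl replicate 1 and -0.42 without KCl replicate 2.

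**Figure D3:**
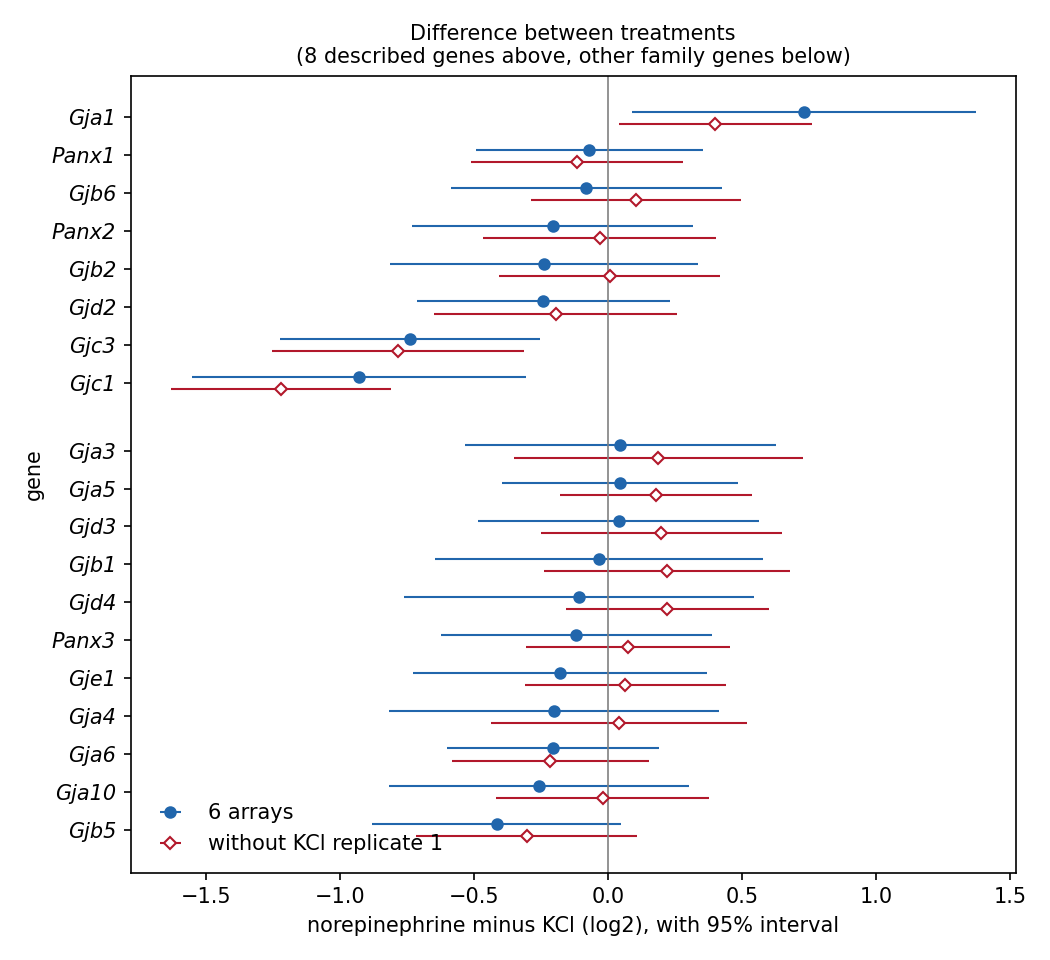
Norepinephrine minus KCl (x axis, log2) with 95% limma intervals for the 8 genes (upper block) and the other 11 measured connexin and pannexin genes (lower block), on 6 arrays (blue circles) and without KCl replicate 1 (red diamonds). Only the intervals of Gja1, Gjc1 and Gjc3 leave out 0, in both fits, and most of the lower block moves to the right without that array.

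The list of 15 further connexins and pannexins had 11 genes measured under a single symbol. Their differences ran from -0.42 to 0.045, with 3 higher with norepinephrine and 8 higher with KCl and a median of -0.12. None had an unadjusted p under 0.05. Over all named probe sets, 8217 were higher with norepinephrine and 13423 with KCl, and the median was -0.075. KCl replicate 1 was the highest of the 6 arrays for 10 of these 11 genes, and for 3 of the 8 genes above. Without it, 8 of the 11 were higher with norepinephrine, the list median was 0.073 and the median over all probe sets was 0.0083. The list median was -0.31 without KCl replicate 2, -0.22 without KCl replicate 3 and -0.047 without norepinephrine replicate 2.

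The smallest unadjusted p among them was that of Gjb5, an epithelial connexin, which read 6.34, 6.04 and 6.42 with norepinephrine and 6.91, 6.48 and 6.67 with KCl. The groups were just apart, and the difference was -0.42 ± 0.20 (unadjusted p = 0.0728). Gja6 stood at -0.21 ± 0.17 with groups that were also apart, and Gja10 at -0.26 ± 0.25 with overlap. Leaving out KCl replicate 1, Gjb5 stood at -0.31, Gja6 at -0.22 and Gja10 at -0.021. Gja4 and Gja5, connexins of vascular endothelium, stood at -0.20 ± 0.27 and 0.044 ± 0.19, and Gjb1, a connexin of myelinating glia and liver, at -0.035 ± 0.27. These 3 were at 0.040, 0.18 and 0.22 without KCl replicate 1, so the sign of Gja4 and Gjb1 turned.

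Scaffold and regulator genes of connexin channels were read next. Of 20 listed genes 16 were measured, 9 higher with norepinephrine and 7 higher with KCl, with a median of 0.047, which was -0.026 without KCl replicate 1, 0.11 without KCl replicate 3, 0.018 without norepinephrine replicate 2 and -0.079 after a further quantile normalization. Of the 16, 1 gene had an unadjusted p under 0.05, against 3.43% of all probe sets. This was caveolin 1 (Cav1), a membrane scaffold, at 0.79 ± 0.33 with overlapping groups, and at 0.47 without KCl replicate 1, where its unadjusted p was 0.0975. N-cadherin (Cdh2), an adhesion molecule of the junctions beside which gap junctions form, read 9.77, 10.15 and 10.09 with norepinephrine and 10.24, 10.76 and 10.47 with KCl. All KCl arrays were above the norepinephrine arrays, and the difference was -0.48 ± 0.21 (unadjusted p = 0.0506). It was -0.61 ± 0.19 without KCl replicate 1 (unadjusted p = 0.0105). Map1lc3b, an autophagy protein, stood at 0.58 ± 0.31 and consortin (Cnst), a trafficking receptor of connexins, at -0.25 ± 0.20. Both were smaller without KCl replicate 1, at 0.22 and -0.11.

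The purinergic list holds receptors, enzymes, a transporter and channels for ATP and related nucleotides, and pannexins and hemichannels can release ATP. No adenosine receptor was among the measured genes. Of 26 listed genes 22 were measured, 8 higher with norepinephrine and 14 higher with KCl, with a median of -0.066 and 0 at an unadjusted p under 0.05. The ATP-gated channel P2rx7 came first at 0.45 ± 0.24, followed by the vesicular nucleotide transporter Slc17a9 at -0.35 ± 0.24. The ecto-nucleotidase Nt5e stood at 0.27 ± 0.22, and the receptor P2rx2 at -0.29 ± 0.25. All 4 were smaller without KCl replicate 1, at 0.26, -0.16, 0.11 and -0.056 in the same order. The list median was 0.035 without KCl replicate 1 and -0.20 without KCl replicate 2. It was -0.031 without KCl replicate 3, -0.12 without norepinephrine replicate 3 and -0.032 without norepinephrine replicate 2.

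Markers of the cell types that use these connexins were set beside them. In bulk samples fewer cells of a type and less RNA per cell cannot be told apart. Beside Gja1, 16 of 17 measured astrocyte markers were higher with norepinephrine, as were 8217 of all 21640 named probe sets. The median was 0.55, and 7 had an unadjusted p under 0.05, against 3.43% of all probe sets. The smallest were those of Ndrg2, Gfap, Apoe and Clu at 1.40 ± 0.22, 1.89 ± 0.30, 1.20 ± 0.21 and 1.04 ± 0.18. The mean of the list was 9.60 to 9.66 on the norepinephrine arrays and 8.65 to 9.20 on the KCl arrays. Without KCl replicate 1, the median was 0.21 and 14 of the 17 were higher with norepinephrine. Ndrg2, Gfap, Apoe and Clu then stood at 1.20, 2.17, 1.24 and 0.97, and Gfap passed the adjusted threshold (limma, adjusted p = 0.045). Over the brightest 30% of named probe sets the median difference was 0.14, or -0.0088 without KCl replicate 1. Of 13 neural stem cell markers 8 stood higher under norepinephrine. Their median was 0.11, with list means of 9.00 to 9.17 and 8.72 to 8.99. The 4 of smallest p were Hopx, Id3, Prom1 and Vim at 0.87 ± 0.26, 0.76 ± 0.24, 0.60 ± 0.21 and 0.44 ± 0.21, with Vim at 0.28 without KCl replicate 1. The other 5 were higher with KCl, among them the Notch effector Hes1 at -0.38 ± 0.19, with groups apart, and nestin (Nes) at -0.096 ± 0.37, or -0.58 ± 0.17 without KCl replicate 1, both named after their values were seen. The list median was 0.12 without KCl replicate 1 and 0.21 without KCl replicate 2. The part of these cells in the Gja1 difference was not tested.

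Beside Gjc3, 7 of 13 measured oligodendrocyte lineage markers were higher under norepinephrine and 6 were higher with KCl, as Gjc3 was. The list median was 0.085. Gpr17 and Pdgfra, both of precursors, stood at 0.70 ± 0.25 and 0.66 ± 0.24. They were the 2 with an unadjusted p under 0.05, against 3.43% of all probe sets. The myelin genes Cnp and Mag stood at 0.45 ± 0.28 and -0.39 ± 0.28. Without KCl replicate 1, Gpr17 and Pdgfra were at 0.89 and 0.57, and Cnp and Mag at 0.13 and -0.077. The list mean was 7.76 to 7.79 with norepinephrine and 7.59 to 7.80 with KCl. Its median was -0.037 after a further quantile normalization, 0.13 without KCl replicate 1, -0.027 without KCl replicate 2 and 0.049 without norepinephrine replicate 2. The part of these cells in the Gjc3 difference was not tested.

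Beside Gjc1, 3 of 12 mural cell markers were higher with norepinephrine and 9 with KCl, with a median of -0.10 and 0 at an unadjusted p under 0.05. The first 4 were Tagln at 0.33 ± 0.21, Anpep at -0.35 ± 0.23, Acta2 at 0.52 ± 0.35 and Notch3 at -0.29 ± 0.22. They were at 0.36, -0.16, 0.21 and -0.11 without KCl replicate 1. The list mean was 6.71 to 6.80 with norepinephrine and 6.50 to 7.09 with KCl, and the median was 0.11 without KCl replicate 1, -0.34 without KCl replicate 2 and -0.018 without norepinephrine replicate 2. Beside Gjd2, 7 of 12 neuron markers were higher under norepinephrine, at a median of 0.058. Without KCl replicate 1 it was 9 of 12 and 0.16, and the median was -0.061 and -0.056 without norepinephrine replicates 1 and 3 and -0.010 and 0.0028 without KCl replicates 2 and 3. Snap25 and Tubb3 led at 1.03 ± 0.27 and 0.47 ± 0.18, and Map2 and Gad1 stood at -0.33 ± 0.18 and -0.19 ± 0.18. The part of mural cells and neurons in these differences was not tested.

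Other cells that could be present were read by the same lists. With norepinephrine, 2 of 12 meningeal fibroblast markers, 1 of 11 endothelial, 1 of 11 microglia and 2 of 10 ependymal markers were higher, with medians of -0.10, -0.12, -0.25 and -0.10. Without KCl replicate 1 these medians were 0.10, 0.060, -0.034 and 0.084, and without KCl replicate 2 they were -0.28, -0.31, -0.45 and -0.21. The fibroblast and endothelial medians were -0.051 and -0.063 without norepinephrine replicate 2. Among the endothelial, microglia and ependymal lists 1 gene, Ly86 of microglia, had an unadjusted p under 0.05, against 3.43% of all probe sets. It stood at -0.47 ± 0.20, or -0.33 without KCl replicate 1 (unadjusted p = 0.0697). Its mean level of 5.73 was among the dimmest 30% of probe sets, which read high on KCl replicate 1 by a median of 0.53. Pdgfra, already counted above, was the 1 among the fibroblast markers. No marker can be called absent, because background was not recorded in the values used.

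Genes with the most similar pattern over the 6 arrays were found by the root mean square difference of centred log2 values among 13947 genes above the 30th percentile. For Gja1 these were the mitochondrial carrier Slc25a23, Tmem176b and the complex III subunit Cyc1, at 0.043, 0.049 and 0.062 log2 units, all with KCl replicate 1 lowest, as for Gja1. Bright probe sets as a whole read low on that array, with a median deviation of -0.47 over the brightest 30%. The nearest to Gjc1 were Fndc1, the sorting receptor Sorcs1 and the phosphatase Inpp4b at 0.20, 0.20 and 0.22. Those for Gjc3 were the zinc finger gene Zfp791, Nucb2 and Cdh2 at 0.14, 0.15 and 0.16. The spread of the 3 genes about their own means was 0.49, 0.56 and 0.42 in the same measure. With 6 arrays such likeness describes these arrays only.

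**Figure D4:**
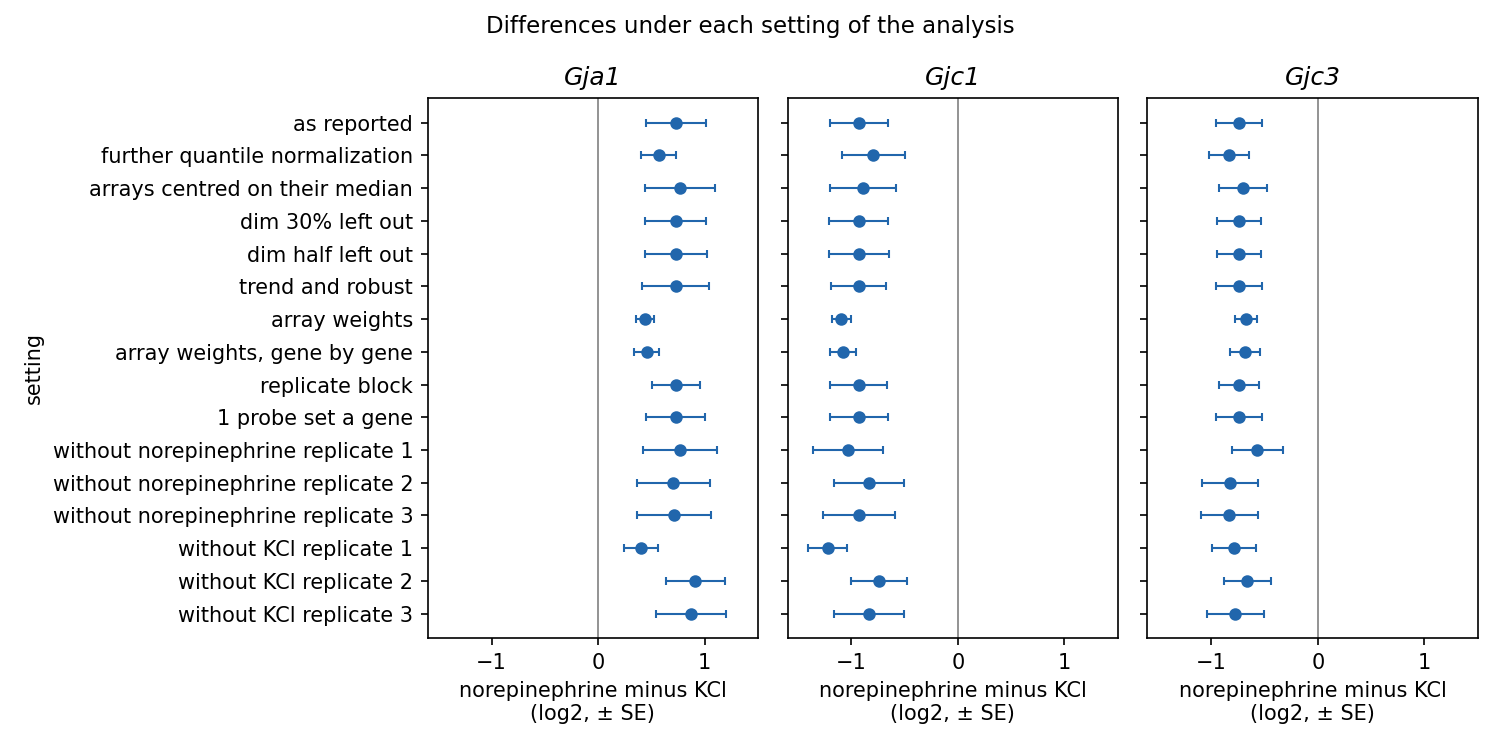
Norepinephrine minus KCl (x axis, log2, ± SE) for Gja1, Gjc1 and Gjc3 under each setting of the analysis (y axis), from the reported fit at the top to the fits that leave out 1 array. The direction is the same in every setting shown, Gja1 is smallest without KCl replicate 1 at 0.40, and the error bars are shortest with array weights.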

How the data were processed

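RNA was measured in 6 neurosphere samples, 1 array each. Per the labels' protocols, TRIzol-extracted RNA was cleared of genomic DNA and made into cDNA with a whole-transcript kit (NuGEN Applause). The deposited values are log2 expression per probe set, made by the authors with RMA in Partek as far as the submitters' processing notes name tools, which usually corrects background, quantile-normalizes and summarises probes. Versions, settings and genome build were not given in the sources used here, and scanner files were not analysed here. Array distributions differed, with interquartile ranges of 1.48 to 2.39.

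Of 34760 probe sets, the platform table gave 21640 a single symbol, 1321 several and 11799 none. All 8 genes matched the RefSeq table by Entrez identifier. The treatments were compared with limma 3.58.1 under R 4.3.3, by lmFit and eBayes, on all 21640, two-sided, with Benjamini-Hochberg adjustment. The script was tested on simulated data. Lists used the brightest probe set of each gene and got no test. Named were all 8 genes, the 3 further family genes of smallest p, up to 4 genes of smallest p in each list described by name, and 3 nearest patterns for each of 3 genes; Hes1, Nes and other family genes were named after their values were seen. The genes and lists were chosen with earlier results of these data known. Alternatives were normalization, centring, filters on dim probe sets, variance moderation, array weights, a replicate block, 1 probe set a gene and leaving out each array; gene-by-gene array weights and the counts over the 8 genes were added after the data were seen. The number of arrays limits precision.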

Additional observations from a re-analysis of the deposited data

How the results depend on the processing

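Gja1, Gjc1 and Gjc3 kept their direction under all 15 alternatives run for each, Gjd2 and Panx2 under all 14 and 15. Gjb6 changed sign after a further quantile normalization (0.052), with array weights (0.044, or 0.048 gene by gene) and on leaving out arrays (-0.23 to 0.10). Leaving out arrays took Gjb2 from -0.43 to 0.0043 (above 0 without KCl replicate 1) and Panx1 from -0.17 to 0.014 (above 0 without norepinephrine replicate 3). Probe sets past the adjusted threshold numbered 0 to 4 on leaving out arrays, 4 without KCl replicate 1, and 0 at an adjusted p under 0.1. Genes of the 8 whose groups did not overlap numbered 3 to 5 on leaving out arrays. The 5 were without KCl replicate 2, where 42.2% of all probe sets did not overlap. Without norepinephrine replicate 2 they numbered 4 (14.7% of all probe sets). In the remaining fits with 1 array left out they numbered 3 (14.3% to 16.2%). After a further quantile normalization they numbered 2 (11.2%).

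With array weights 5670 of the 21640 probe sets passed the adjusted threshold, among them 5 of the 8 genes. The same 5 were at an unadjusted p under 0.05, as were 40.1% of all probe sets. They were Gja1 at 0.44, Gjc1 at -1.10, Gjc3 at -0.67, Gjd2 at -0.26 and Panx2 at -0.24. The estimate of these weights stopped before convergence. It gave KCl replicate 3 a weight of 672.7 against 0.058 and 0.086 for the other KCl arrays, so the KCl group rested on 1 array. Gene-by-gene weights passed 1454 of the 21640 probe sets, among them Gja1 at 0.46, Gjc1 at -1.08 and Gjc3 at -0.68. These were the 3 of the 8 at an unadjusted p under 0.05 there, as were 23.9% of all probe sets. The weight was 6.76 for KCl replicate 3 against 0.16 and 0.29 for the other KCl arrays. Under the 30th percentile filter 6 of the 8 genes passed, and under the median filter 5.

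With the replicate block 0 probe sets passed and the same 3 genes had an unadjusted p under 0.05 (6.64% of all probe sets), with an SE of 0.22 for Gja1 at 0.73. The labels do not say that equal replicate numbers mark a shared animal or culture, so the numbers were not taken as pairs. Deviations of same-numbered arrays correlated at 0.30, 0.63 and 0.085. Norepinephrine replicates 1 and 3 correlated about equally with KCl replicate 1, at 0.30 and 0.31. With 3 arrays in a group these values cannot decide whether the arrays were paired. Of 108 list medians under alternatives, 9 moved by more than the spread between arrays. The unknown background limits the dim Gjb2 and Gjb6.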

Other observations

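Differences between genes within each array, chosen after the values were seen, remove any shift common to an array, but not one that varies with level. Gja1 minus Gjc1 was 3.14, 3.66 and 3.46 log2 units on the norepinephrine arrays and 1.68, 1.75 and 1.85 on the KCl arrays. The offset between 2 probe sets has no meaning of its own, but the change in it between treatments was 1.66, or 1.62 without KCl replicate 1. This change is made of the 2 differences given above and is no further evidence for them. KCl replicate 1, low for both genes, lay with the other KCl arrays in this measure, and the KCl arrays had an SD of 0.082. The deviation of KCl replicate 1 varied with level, at medians of -0.63 and 0.31 for probe sets at the levels of Gja1 and Gjc1. Subtraction does not remove such a deviation, and Gjc1 read against it. Gja1 minus Gjc3 was 2.77, 2.38 and 2.34 with norepinephrine and 0.46, 1.24 and 1.38 with KCl, a change of 1.47, or 1.18 without that array. Gjc1 minus Gjc3 overlapped between the groups, with means of -0.92 ± 0.48 and -0.73 ± 0.43 (SD, n = 3 each). No test was made of these pairs, since they were picked for how they moved.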
